A study of Mus musculus with 2 samples.

Results

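Heat shock chaperones and their partners of the cytosol and the mitochondrion were followed in mouse liver under calorie restriction. The group holds 44 genes, given as a fixed list of HSP70 and HSP110 proteins, HSP90 and its co-chaperones, small HSPs, DNAJ co-chaperones, other HSP70 co-chaperones, the TRiC chaperonin, mitochondrial chaperones and 2 heat shock factors. A member was taken from array probe sets annotated with its symbol and no other, which 41 of the 44 had, among 18193 genes with such a probe set. A probe set is a group of short probes that read 1 transcript or several related ones. Hsp90ab1, the constitutive cytosolic HSP90, and Hsf1, the main heat shock transcription factor, had none and were not analysed here. Ptges3, the HSP90 co-chaperone p23, had only probe sets shared with its pseudogene.

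The mice were male wild-type C57BL/6J, an inbred laboratory strain, housed singly and aged 8 weeks at the start and 5 months in the labels. Calorie-restricted (CR) mice received 20% less food in week 1 and 40% less in the next 11 weeks, and ad libitum (AL) mice ate freely for the same 12 weeks. For each diet, equal amounts of RNA from the livers of 3 mice were combined, and 1 array was hybridised with the pool. With 1 pool and 1 array per diet there were no replicates, no test was possible, and the spread between mice is not known, so every difference compares these pools only.

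Chaperones hold unfolded proteins and help them fold. HSP70 binds short exposed stretches in cycles of ATP use. DNAJ proteins bring it its clients and start the ATP step, and nucleotide exchange factors such as HSP110 and BAG proteins end the cycle. HSP90 acts later, on kinases and steroid hormone receptors, and the ring-shaped TRiC folds actin and tubulin. Under heat or other protein damage the factor HSF1 binds inverted repeats called heat shock elements in DNA and raises the inducible members.

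Intensities are those of the authors, on a linear scale, and each difference is the log2 intensity in CR minus that in AL. Each gene was read on its brightest probe set. A gene counted as measured where its intensity was at least 7.38, the median over both arrays, in CR or in AL. This held for 40 members, all of them above the limit on both arrays. The exception was the heat shock factor gene Hsf2, with an intensity of 6.69 in CR and 6.23 in AL. Probe sets of 1 gene gave the only view of technical spread, with a median SD of 0.29 (log2) over 4924 genes and 0.29 over members.

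After the authors' processing, which normalizes arrays to each other, median intensities were 7.42 in CR and 7.35 in AL. Their closeness therefore says little about RNA levels. The median difference over 12644 measured genes was -0.02, and all directions below are relative to that typical gene. Scaling on all 18 hybridisation control probe sets would place the median gene at -1.04, and scaling on the cre controls alone would place it at -0.40. Both shifts lower every member by the same amount and leave their order as it is. The labelled tissue was read through the hepatocyte markers Alb, Apoa1, Ttr and Cps1, whose intensities summed to 44537 in CR and 46185 in AL. All 6 measured Kupffer cell markers were lower in CR, with sums of 1735 in CR and 1955 in AL. The neutrophil gene S100a8 had 10.9 in CR and 53.4 in AL, and the erythroid gene Alas2 7.43 in CR and 40.2 in AL. In whole-liver RNA, fewer cells of a type and less RNA per cell cannot be told apart, and the part of these cells in the chaperone values was not tested. The beta-actin and Gapdh control probe sets, which sample 3 parts of each transcript, lay from -1.61 to -0.67. Their ratio of 3′ to 5′ signal, a sign of RNA degradation, was 89.7 in CR and 83.5 in AL for actin, and 53.2 in CR and 46.9 in AL for Gapdh. Both pools thus gave far more 3′ than 5′ signal. The 5′ signals were low, at 15.9 in CR and 28.2 in AL for actin and 14.9 in CR and 26.9 in AL for Gapdh. The part of this in the chaperone values, and in disagreements between probe sets of 1 gene, was not tested.

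Most chaperone genes lay within 1.5-fold between the pools, and the larger differences ran both ways. Of the 40 measured members, 2 were at least 2-fold higher in CR, the inducible HSP70 genes Hspa1a and Hspa1b. This is 5.00% of the members, against 1.80% of all measured genes. The probe sets of Hspa1a and Hspa1b may read both transcripts, so they may not count as 2 separate genes. The HSP90 co-chaperone gene Stip1 was the 1 member at least 2-fold lower, or 2.50%, against 2.79% of all measured genes. The shares over all genes depend on the limit. With it at the 75th percentile, 39 members were left, again with 2 higher and 1 lower. Of 7581 genes measured there, 2.78% were higher and 4.25% lower. At the limit of 7.38, 5 members were at least 1.5-fold higher, 12.5% against 6.76% of measured genes. At least 1.5-fold lower were 5 members, 12.5% against 9.49%. The other 30 lay within 1.5-fold. The members' median was -0.13, with 16 above 0 and 24 below, or 60.0% below against 52.1% of measured genes, and their middle range between quartiles ran from -0.41 to 0.36, against -0.29 to 0.23 for all measured genes. Differences beyond the probe set SD of 0.29 were seen in 62.5% of members and 45.2% of measured genes. For these ranges and shares, and for 1.5-fold shares here and below, no value over genes at the stricter limit was computed. That limit kept 39 of the 40 members but 7581 of the 12644 measured genes, so a comparison with genes of like brightness is lacking.

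**Figure D1:**
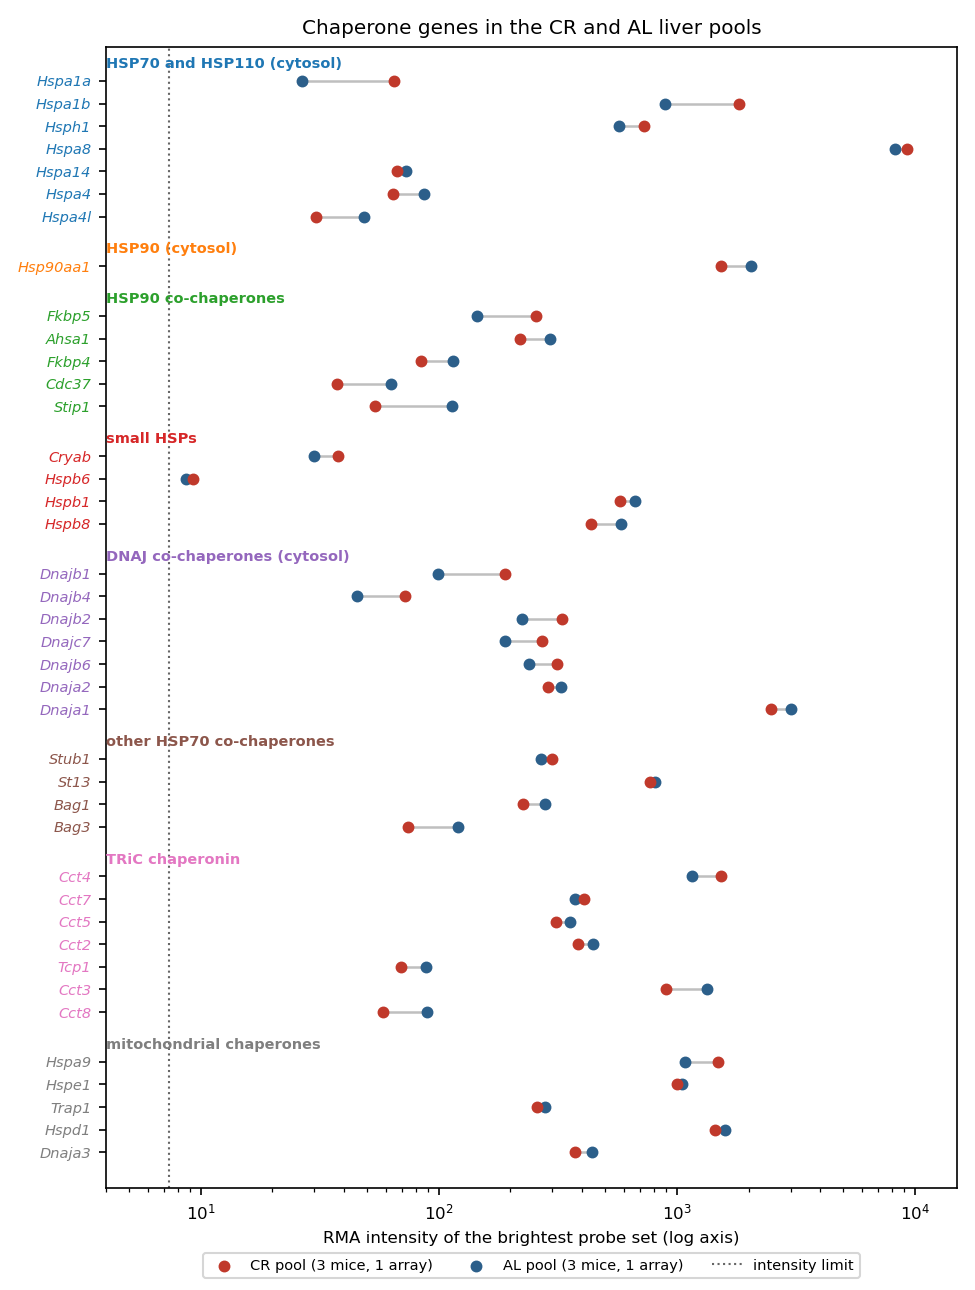
RMA intensity of the brightest probe set of 40 chaperone genes (log axis) in the CR pool (red) and the AL pool (blue), grouped by family. Each point is 1 array of RNA from 3 mice, so no error can be drawn. Hspa1a and Hspa1b lie farther right in CR and Stip1 farther left, and all points are above the intensity limit of 7.38. Levels of different genes cannot be compared, because they come from different probes.

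The inducible HSP70 genes were the members with the largest positive differences. Hspa1a had an intensity of 64.5 in the CR pool and 26.8 in the AL pool, a difference of 1.27 on its only probe set. Hspa1b had 1828 in CR and 890 in AL, a difference of 1.04, and its other probe sets stood at 0.85 and 0.72. These genes encode nearly the same stress-induced HSP70 protein and their probe sets may read both transcripts, so their separate values are uncertain. Averaged over its probe sets, Hspa1b was below 2-fold, at 0.87.

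The constitutive HSP70 and the HSP110 exchange factors did not share that difference. Hspa8, the abundant HSC70 of unstressed cells, had 9269 in CR and 8203 in AL, a difference of 0.18. Its other probe sets stood at 0.12, -0.14 and 0.69, the last a dim one with 8.25 in CR and 5.12 in AL. With probe sets of less specific types left out, Hspa8 stood at 0.69 on that dim one. Hsph1, an HSP110 that heat also induces, had 730 in CR and 573 in AL, a difference of 0.35, although its other probe set stood at -0.22. Hspa4, the HSP110 known as Apg-2, had 64.2 in CR and 86.3 in AL, a difference of -0.43, with other probe sets from -1.09 to 0.48. Hspa4l, its close relative, had 30.5 in CR and 48.5 in AL, and its probe sets ran from -0.67 to 0.70. Of their measured probe sets, 3 of 4 for Hspa4 and 3 of 5 for Hspa4l were below 0. The Hspa4 probe set above 0 was dim, with 13.8 in CR and 9.92 in AL. Neither gene had all its probe sets on 1 side of 0, and the direction of Hspa4l is not clear. Hspa14, an HSP70-like protein that works at the ribosome, stood at -0.12, with all 3 of its measured probe sets below 0. The family's median was 0.18 over 7 genes, but -0.84 with all hybridisation controls as the scale and -0.20 with cre. Of its 22 measured probe sets 11 lay above 0 and 11 below.

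The start regions of these genes carry the letters of heat shock elements to different degrees, and the bases before the start are shown for the members with the largest differences and for Dnajb6 and Hspe1, which hold the longer match. The element was searched as 2 inverted units, GAANNTTC or TTCNNGAA, each of which reads the same on both strands, and as 3 units, GAANNTTCNNGAA or TTCNNGAANNTTC, which are each other's reverse complement and contain the shorter matches. Sequences are from RefSeq on GRCm38.p6, written 5′ to 3′ on the strand of the gene, and capitals mark matches of 2 or more units. The Hspa1a stretch is chr17:34972157-34972406 on the minus strand, Hspa1b chr17:34959239-34959488 on the minus strand, Dnajb1 chr8:83607925-83608174 on the plus strand, Dnajb6 chr5:29735648-29735897 on the plus strand, Stip1 chr19:7040027-7040276 on the minus strand and Hspe1 chr1:55088053-55088082 on the plus strand.
Hspa1a: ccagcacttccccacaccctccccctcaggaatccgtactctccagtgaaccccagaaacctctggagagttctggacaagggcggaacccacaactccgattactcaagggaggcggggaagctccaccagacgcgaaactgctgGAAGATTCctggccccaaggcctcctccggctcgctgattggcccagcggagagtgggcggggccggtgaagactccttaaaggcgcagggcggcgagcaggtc
Hspa1b: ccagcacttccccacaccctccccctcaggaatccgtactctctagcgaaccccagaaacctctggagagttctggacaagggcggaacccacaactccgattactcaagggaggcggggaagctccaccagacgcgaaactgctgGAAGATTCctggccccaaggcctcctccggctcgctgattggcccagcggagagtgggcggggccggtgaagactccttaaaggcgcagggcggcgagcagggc
Dnajb1: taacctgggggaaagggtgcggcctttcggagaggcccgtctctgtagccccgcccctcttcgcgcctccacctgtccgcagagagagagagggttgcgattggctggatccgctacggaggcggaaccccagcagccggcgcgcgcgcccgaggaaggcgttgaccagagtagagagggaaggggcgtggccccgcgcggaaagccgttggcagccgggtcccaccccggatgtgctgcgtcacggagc
Dnajb6: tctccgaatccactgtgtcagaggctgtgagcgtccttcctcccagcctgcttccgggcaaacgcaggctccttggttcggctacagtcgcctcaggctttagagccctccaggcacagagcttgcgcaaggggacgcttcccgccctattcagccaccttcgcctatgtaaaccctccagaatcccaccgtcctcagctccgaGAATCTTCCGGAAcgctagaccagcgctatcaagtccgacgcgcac
Hspe1: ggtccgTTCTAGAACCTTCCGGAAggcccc
Stip1: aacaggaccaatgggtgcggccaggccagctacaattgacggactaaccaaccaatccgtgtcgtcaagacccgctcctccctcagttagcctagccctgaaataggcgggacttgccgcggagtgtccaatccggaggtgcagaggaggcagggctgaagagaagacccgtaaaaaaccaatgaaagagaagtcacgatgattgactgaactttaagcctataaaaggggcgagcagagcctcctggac

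Hspa1a and Hspa1b lie beside each other on chromosome 17 and were identical at 247 of the 250 bases before the start. Both held 1 match of 2 units, with its first base at position -104 from the start. Dnajb6 held 3 units in a row from position -46. In Hspe1 the matches began at position -89. The same bases, read on the other strand, were the matches of Hspd1, whose gene runs the opposite way. No match was present in the stretches of Dnajb1 and Stip1, which says only that these letters are not there.

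Windows of 300 bases, from 250 before to 50 after each start, were given for 36 members. At least 1 match of 2 units was present in 17 of the 36, or 47.2%, against 17.0% of 27025 genes with a window. A match of 3 units was present in 4, or 11.1%, against 0.662% of genes, namely in Hspd1, Hspe1, Dnajb6 and Hsph1. The Hspd1 and Hspe1 matches are the same bases and count as 1 stretch of DNA. Measured members with a 2-unit match had a median difference of -0.14 (17 genes, from -0.76 to 1.27), and those without had -0.24 (17 genes, from -1.07 to 0.93). With a 3-unit match the median was 0.14 (4 genes, 2 above 0 and 2 below), and without it was -0.21 (30 genes, 10 above 0 and 20 below). The ranges of members with and without either match overlapped, and the 4 genes are too few to describe a difference.

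**Figure D2:**
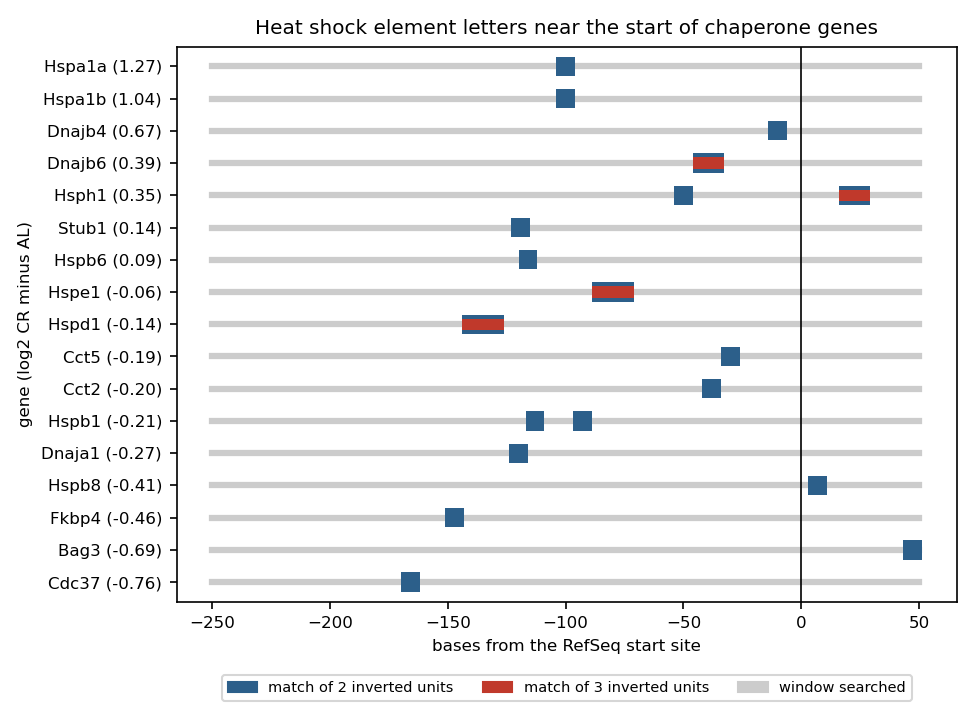
Positions of heat shock element letters (bases from the RefSeq start site) in the 17 chaperone genes that hold a match, ordered by their log2 difference, CR minus AL, given in brackets. Blue bars are matches of 2 inverted units, red bars matches of 3, and grey lines the window searched, the one of lowest coordinate where a gene has several. Matches are present from the top of the order, in Hspa1a at 1.27, to the bottom, in Cdc37 at -0.76.

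The DNAJ co-chaperones of class B, grouped after their values were seen, were higher in the CR pool. This held relative to the typical gene but not on the scale of all hybridisation controls. Dnajb1, or HSP40, the main heat-induced partner of HSP70, had 189 in CR and 99.6 in AL, a difference of 0.93. Its other probe set stood at 0.10, with 40.3 in CR and 37.7 in AL, so the size of its difference depends on the probe set. Dnajb4, a close relative of Dnajb1, had 71.8 in CR and 45.2 in AL, a difference of 0.67, and its other measured probe set had 38.3 in CR and 19.2 in AL.

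Dnajb2, which in humans is best known from neurons, had 329 in CR and 223 in AL, a difference of 0.56. Dnajb6, a suppressor of protein aggregation, had 312 in CR and 238 in AL, a difference of 0.39, with other measured probe sets at 0.13 and 0.62. Dnajc7, which binds both HSP70 and HSP90, had 270 in CR and 190 in AL, a difference of 0.51. All 8 measured probe sets of the 4 class B members were above 0, against 40 of the 93 of all members. As these 4 genes were grouped after their values were seen, this adds no support. Dnaja1, a farnesylated DNAJ of the cytosol, had 2488 in CR and 3006 in AL, a difference of -0.27, with its other probe sets at -0.22 and -0.17. Dnaja2 stood at -0.19, with probe sets from -0.31 to 0.73. It was at 0.73 with probe sets of less specific types left out and at 0.039 over the mean of all, so its direction is not clear.

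The 7 DNAJ genes had a median of 0.51. Of them 2 were at least 1.5-fold higher, Dnajb1 and Dnajb4, or 28.6% against 6.76% of measured genes. With all hybridisation controls as the scale the DNAJ median was -0.50, and with cre it was 0.14. The 4 class B members had a median of 0.61 and the 2 class A members one of -0.23, a division made after their values were seen.

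The listed HSP90 co-chaperones were mostly lower in the CR pool on their brightest probe sets. Stip1, or HOP, which links HSP70 to HSP90, had 54.0 in CR and 114 in AL, a difference of -1.07 on its only probe set. Cdc37, which brings kinases to HSP90, had 37.3 in CR and 63.2 in AL, a difference of -0.76, and its other probe set stood at -0.19. Fkbp4, or FKBP52, a partner of steroid receptor complexes, had 83.8 in CR and 115 in AL, a difference of -0.46.

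Fkbp4 also had probe sets at -0.82 and 0.07, so its own probe sets spread more widely than its difference from 0. Ahsa1, the activator of the HSP90 ATPase, had 218 in CR and 293 in AL, a difference of -0.43, while a dim probe set stood at 0.20. Fkbp5, or FKBP51, which glucocorticoids induce and which dampens the glucocorticoid receptor, went the other way. It had 257 in CR and 145 in AL, a difference of 0.82, with its other measured probe set at 0.22. The 2 probe sets shared by Ptges3 and its pseudogene stood at -0.41 and -0.23.

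The family's median over 5 genes was -0.46, with 4 below 0. Of the family's 10 measured probe sets, 6 were below 0 and 4 above. Stip1 and Cdc37 were at least 1.5-fold lower, 40.0% of the 5 against 9.49% of measured genes. Fkbp5 was at least 1.5-fold higher, 20.0% against 6.76%. HSP90 itself was read only through Hsp90aa1, the inducible form. It had 1529 in CR and 2054 in AL on the brightest probe set, a difference of -0.43. Another bright probe set had 1020 in CR and 660 in AL, a difference of 0.63, and a dimmer one stood at -0.27, so the direction of Hsp90aa1 depends on the probe set. The mean over all 5 of its probe sets, 2 of them below the limit, was -0.033.

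**Figure D3:**
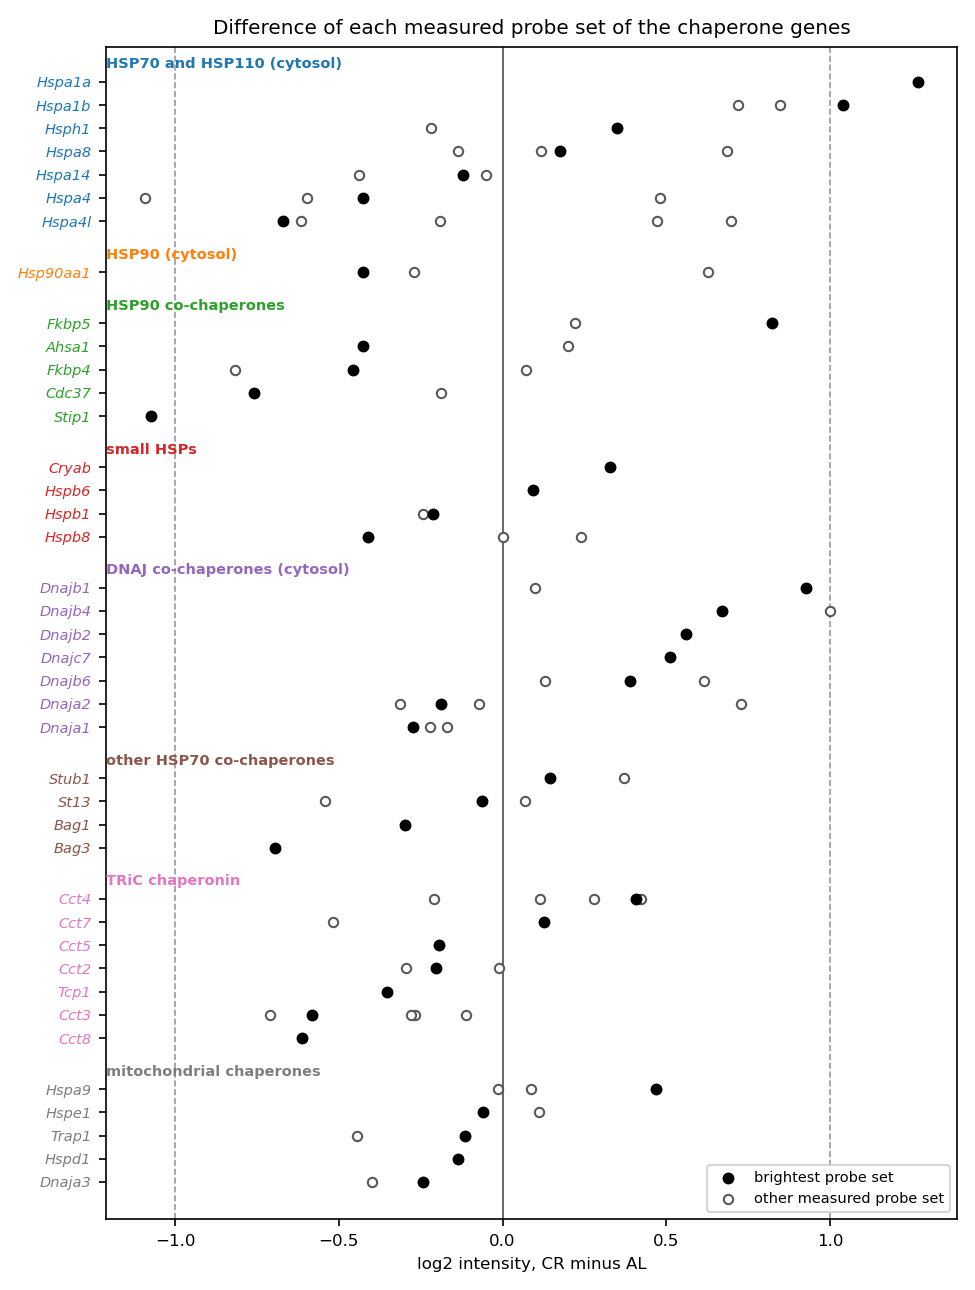
Log2 intensity difference, CR minus AL, of each of the 93 measured probe sets of the 40 chaperone genes, with the brightest probe set of a gene filled and others open. Dashed lines mark 2-fold. Points of Hspa1b and the class B DNAJ genes are all right of 0, whereas those of Hspa4, Hspa4l, Hsp90aa1 and Cct7 fall on both sides. All positions are relative to the typical gene, and scaling on the hybridisation controls would move every point left by 1.02.

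Probe sets of one gene often disagreed. Of the 28 members with several measured probe sets, 14 had all of 1 sign and 14 had both signs. The other 12 rested on 1 measured probe set, among them Hspa1a and Stip1. Over all 93 measured probe sets, 40 were above 0 and 52 below.

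Small HSPs, which hold unfolding proteins without using ATP, showed no shared difference. Hspb1, or HSP25, had 576 in CR and 668 in AL, a difference of -0.21, and its other probe set stood at -0.24. Hspb8, the partner of Bag3 in clearing aggregates, had 437 in CR and 581 in AL, a difference of -0.41, with other probe sets at 0.00 and 0.24. Cryab, or alpha-B crystallin, abundant in lens and muscle, had 37.7 in CR and 30.1 in AL, a difference of 0.33. Hspb6, or HSP20, a muscle protein, lay close to the limit, with 9.25 in CR and 8.67 in AL. Muscle markers were low: 5 of 8 were measured, with smooth muscle sums (Acta2, Des, Tagln) of 66.7 in CR and 75.1 in AL and striated muscle sums (Ckm, Mb) of 24.3 in CR and 23.5 in AL, while Acta1, Myh4 and Myh11 were below the limit. Their part in the Cryab and Hspb6 values was not tested. The small HSP median was -0.06 over 4 genes.

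Other HSP70 co-chaperones were mostly below 0. Bag3, an exchange factor that heat induces and that sends clients to autophagy, had 74.1 in CR and 120 in AL, a difference of -0.69, opposite in sign to Hspa1a and Hspa1b. Bag1, which couples HSP70 to the proteasome, had 226 in CR and 279 in AL, a difference of -0.30. St13, or HIP, which slows the HSP70 cycle, stood at -0.06, with other probe sets at -0.54 and 0.07. Stub1, the ubiquitin ligase CHIP, had 297 in CR and 269 in AL, a difference of 0.14, with its other probe set at 0.37. Their median was -0.18 over 4 genes.

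TRiC subunits leaned below 0 without moving as a block. Cct8 had 58.5 in CR and 89.4 in AL, a difference of -0.61. It was the 1 subunit at least 1.5-fold lower, 14.3% of the 7 against 9.49% of measured genes. Over the mean of all its probe sets, dim ones included, it stood at -0.25. Cct3 had 897 in CR and 1343 in AL, a difference of -0.58, and all 5 of its measured probe sets were below 0. Tcp1, the alpha subunit, had 69.4 in CR and 88.6 in AL, a difference of -0.35.

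Cct2 stood at -0.20 and Cct5 at -0.19, both within the probe set SD of 0. Cct4 went the other way, with 1529 in CR and 1151 in AL, a difference of 0.41, and other measured probe sets from -0.21 to 0.42. Cct7 stood at 0.13, with another probe set at -0.52. The median over 7 subunits was -0.20, with 5 below 0 and 13 of 18 measured probe sets below 0. The complex holds its subunits in equal numbers, and the differences of the 7 spread from -0.61 to 0.41.

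Mitochondrial chaperones differed little between the pools. Hspd1 and Hspe1, the HSP60 and HSP10 of the mitochondrial folding chamber, share the start region shown above. Hspd1 had 1448 in CR and 1592 in AL, a difference of -0.14, and Hspe1 had 1003 in CR and 1046 in AL, a difference of -0.06. Trap1, the mitochondrial HSP90, stood at -0.11, with its other probe set at -0.44. Dnaja3, the mitochondrial DNAJ, had 372 in CR and 441 in AL, a difference of -0.24.

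Hspa9, or mortalin, the mitochondrial HSP70 that pulls in proteins during import, had 1492 in CR and 1079 in AL, a difference of 0.47. Its other measured probe sets stood at 0.09 and -0.01, so this difference rests on its brightest probe set. The median of the 5 genes was -0.11, and none reached 1.5-fold.

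**Figure D4:**
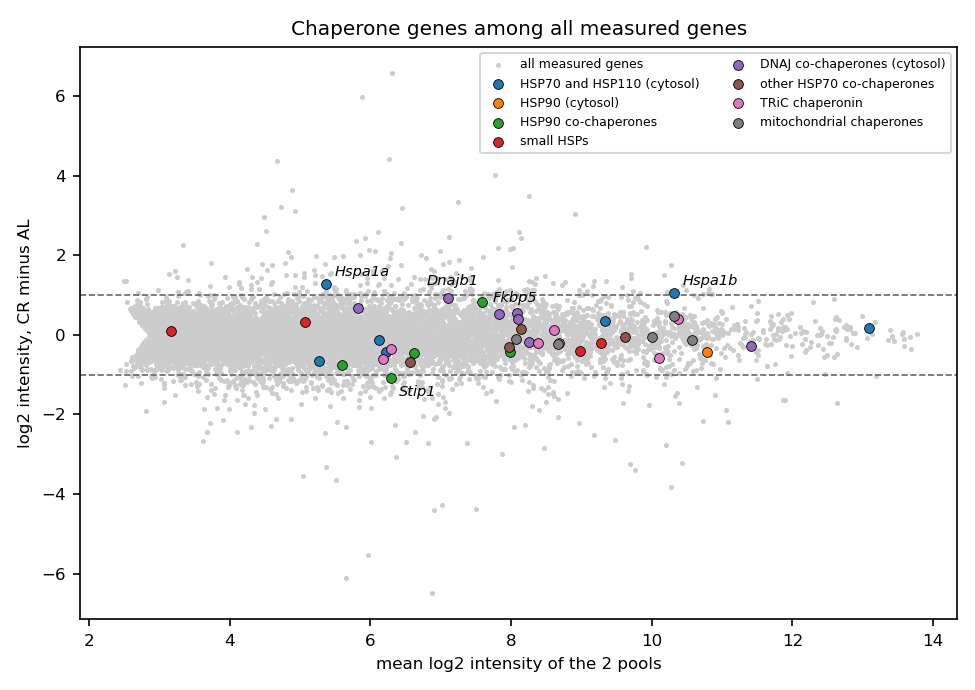
Log2 intensity difference, CR minus AL, against the mean log2 intensity of the 2 pools, for 12644 measured genes (grey) and 40 chaperone genes (coloured by family). Dashed lines mark 2-fold. Hspa1a and Hspa1b are the chaperone genes above the upper line, at 1.27 and 1.04, and Stip1 the one below the lower line, at -1.07, all relative to the typical gene.

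Further chaperone and HSF1 pathway genes held 1 difference of at least 2-fold. Of 56 listed, 52 had a probe set of their own and 45 were measured, with a median of -0.05, 20 above 0 and 25 below. It was that of Grpel2, a nucleotide exchange factor of mitochondrial HSP70, which had 132 in CR and 30.2 in AL, a difference of 2.12, and another probe set at 2.37. It was the 1 gene of the 45 at least 2-fold higher, or 2.22%, against 1.80% of all measured genes, and none was 2-fold lower. With the limit at the 75th percentile it was 1 of 38, against 2.78% of the genes measured there. At 1.5-fold, 4 of the 45 were higher, or 8.89% against 6.76% of measured genes, and 5 lower, or 11.1% against 9.49%.

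Its paralog Grpel1, with 29.6 in CR and 48.7 in AL, stood at -0.72. The next largest differences were those of Vbp1, a prefoldin subunit that passes actin and tubulin to TRiC, at -0.84, and of Hspa2, an HSP70 best known from testis, with 31.4 in CR and 17.6 in AL, at 0.84. Cct6a, the zeta subunit of TRiC, had 651 in CR and 772 in AL, a difference of -0.25.

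Paralogs of the same families in the endoplasmic reticulum (ER) are set beside them for scale, and were chosen after their values were seen. Hspa5, or BiP, the ER HSP70, stood at -2.19, against 0.18 for Hspa8 and 0.47 for Hspa9, a gap of 2.37 and 2.66. Its probe sets ran from -2.35 to -0.30, so the gap is much smaller on the one nearest 0. Hyou1, the ER HSP110, stood at -1.47, with another probe set at -0.39. The cytosolic HSP110 genes Hsph1, Hspa4 and Hspa4l stood at 0.35, -0.43 and -0.67. Hsp90b1, the ER HSP90, stood at -1.09, with another probe set at -1.57, against -0.43 for Hsp90aa1 and -0.11 for Trap1. The ER DNAJ genes Dnajb11, Dnajb9, Dnajc3 and Dnajc10 stood at -1.65, -0.91, -0.71 and -0.62, against -0.27 to 0.93 for the cytosolic ones. The probe sets of Dnajc3 ran from -2.02 to -0.68 and those of Dnajc10 from -0.62 to -0.28. Sil1, the ER exchange factor, was above 0 at 0.25. Sil1 is not among the genes plotted. Dnajb12 and Dnajb14, DNAJ proteins anchored in the ER membrane, stood at 0.18 and 0.71. Since the ER genes were chosen on their values, any separation from the cytosolic and mitochondrial genes is a description only. It was not complete, as the cytosolic Hspa4l at -0.67 lay below Dnajc10 at -0.62.

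**Figure D5:**
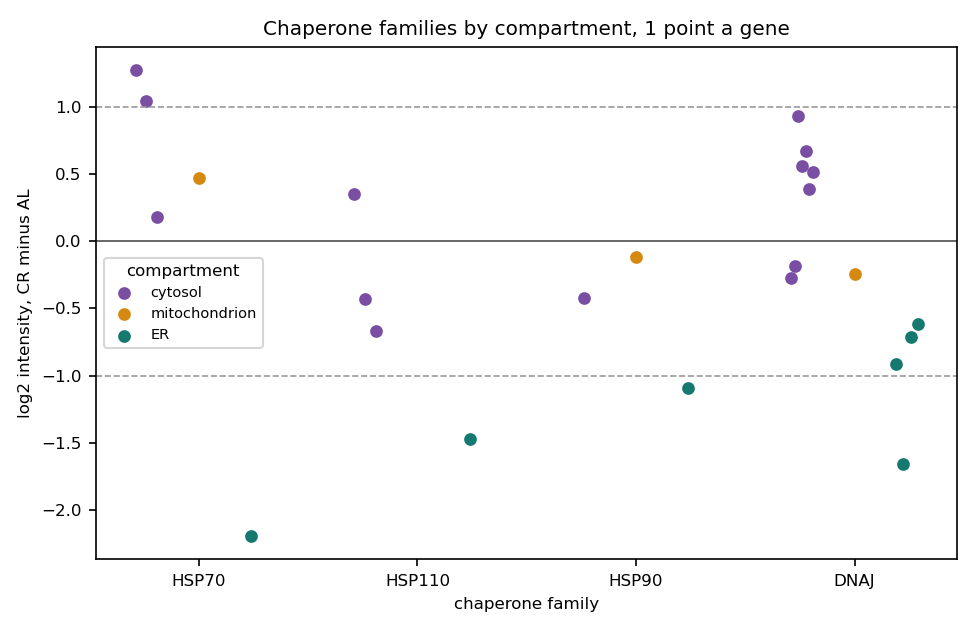
Log2 intensity difference, CR minus AL, of chaperone genes of 4 families, 1 point a gene, in the cytosol (purple), the mitochondrion (orange) and the ER (green). Dashed lines mark 2-fold. The ER genes lie from -2.19 to -0.62 and the cytosolic HSP110 gene Hspa4l at -0.67, all relative to the typical gene.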

How the data were processed

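The authors deposited 1 column of intensity values per pool, and the submitters' processing notes name RMA as the method. This corrects background, normalizes arrays to each other and summarises probe sets. Its version, options and the linear scale's origin are not given in the sources used here. Normalizing arrays to each other hides any shift shared by most genes. Per the labels' protocols, the arrays took biotin-labelled cRNA, from 6 ug of RNA. Without detection calls, a low intensity may be background. Precision is limited by having 1 array per diet.

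Of 45101 probe sets, 34945 had 1 gene symbol in the platform annotation, 932 several and 9160 none, besides 64 controls. The Entrez IDs of all 41 members with a probe set matched RefSeq's GRCm38.p6 table with the same symbol. Values were taken to log2, and each gene was read on the probe set whose mean log2 intensity was highest. Calls are at least 2-fold, a rule of size and not a test. Every member may be named. Of the other pathway genes, those at least 2-fold different and the 3 of largest absolute difference are named. Grpel1, Cct6a, Dnajb12 and Dnajb14 are named outside that rule, with their values already seen. The members, families and lists were chosen with earlier results of these data known, and support nothing on their own.

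Alternatives were the mean over a gene's probe sets, leaving out probe sets that can match several transcripts, no intensity limit, a limit at the 75th percentile (intensity 21.0), centring on array medians, a loess trend removed (span 0.4), shifts by the hybridisation controls and a 1.5-fold threshold. Restricting counts to members with probe sets of 1 sign was chosen after seeing the data. The steps were tested on simulated data. The work used pandas 2.3.3 and numpy 2.4.6 under Python 3.11.15, with statsmodels 0.14.6 for the loess trend and matplotlib 3.10.9 for plots.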

Additional observations from a re-analysis of the deposited data

How the results depend on the processing

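No replicate could be left out with 1 array per diet. No paired analysis was possible because each diet had a single pool. Differences were taken as moved when they changed by more than the probe set SD of 0.29. Centring on medians, removing the loess trend, no intensity limit and the stricter limit moved none of the members' differences, medians or counts by that much. Stip1 alone was 2-fold lower in those settings, and Hspa1a and Hspa1b were 2-fold higher. Of all measured genes, 1.73% were higher and 2.90% lower with centring, and 1.93% and 2.63% with the loess trend removed. With no limit these shares were 1.25% and 1.94%, and with the stricter limit 2.78% and 4.25%. With probe sets averaged, 1 member was at least 2-fold higher, Hspa1a, and Hsp90aa1 stood at -0.033. Of 11410 measured genes 110 were then higher (0.964%) and 230 lower (2.02%). On the brightest probe set they were 227 (1.80%) and 353 (2.79%) of 12644. Averaging moved 9 of 40 members and changed 3 signs. Ahsa1 was then at -0.11, Cct4 at 0.12, Cct8 at -0.25, Dnajb1 at 0.51, Fkbp5 at 0.45, Hspa4l at -0.061 and Hspb8 at -0.057, and the signs of Cct7 at -0.20, Dnaja2 at 0.039 and Hspe1 at 0.026 turned. With probe sets of less specific types left out, 31 members were measured and again 1 was 2-fold higher and 1 lower, against 1.41% and 2.92% of 10878 genes. It moved 7 of the 31 and turned the signs of Dnaja2, at 0.73, and Hspe1, at 0.11. The HSP90 co-chaperone median was then -0.76 and that of other HSP70 co-chaperones -0.54. Among the 26 members with probe sets of 1 sign, an alternative chosen after seeing the data, 2 were 2-fold higher and 1 lower. The share over all genes was not computed for it. At 1.5-fold, 5 members were higher and 5 lower, against 6.76% and 9.49% of measured genes.

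Scaling on all hybridisation controls left 0 members 2-fold higher and 24 lower, and the members' median was -1.14. Of 12644 measured genes, 33 (0.261%) were then higher and 6857 (54.2%) lower. The family medians were then -0.84 for HSP70 and HSP110, -1.44 for Hsp90aa1, -1.47 for HSP90 co-chaperones, -1.08 for small HSPs, -0.50 for DNAJ genes, -1.20 for other HSP70 co-chaperones, -1.22 for TRiC and -1.13 for mitochondrial chaperones. Scaling on cre alone left 0 higher and 4 lower, against 96 and 1030 of 12644 genes (0.759% and 8.15%), with a median of -0.50. The family medians were then -0.20 for HSP70 and HSP110, -0.80 for Hsp90aa1, -0.83 for HSP90 co-chaperones, -0.43 for small HSPs, 0.14 for DNAJ genes, -0.55 for other HSP70 co-chaperones, -0.58 for TRiC and -0.49 for mitochondrial chaperones. These changes follow from the shift itself, of 1.02 or 0.37. Other pathway genes at least 2-fold lower numbered 25 and 5 of 45 under these shifts, against 54.2% and 8.15% of measured genes.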
